A study of Mus musculus with 12 samples.

Results

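The genes described here encode the chaperones that fold proteins, and the machinery that destroys those that fail to fold, in the cytosol, the mitochondrion and the endoplasmic reticulum (ER). They are 39 genes taken from a fixed list, matched by Entrez gene identifier to mouse symbols, out of 26305 genes with an identifier in the deposited table. The list holds 17 cytosolic and mitochondrial members, with their regulator Hsf1, and 22 ER members. All 39 passed the filter on low counts, as did 13499 genes in all.

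RNA was sequenced from fibroblasts isolated from E13.5 mouse embryos, wild type, strain C57BL/6, labelled male, grown in DMEM with 10% serum at 3% oxygen and 5% carbon dioxide. Of the 4 groups, 3 libraries came from 240 h in WM-2474 at 10 µM, a compound the labels call an inactive control. Another 3 came from 240 h in its vehicle DMSO, 3 from 96 h in WM-2474 at the same dose and 3 from 96 h in DMSO. The replicates are called biological in the series text, which does not say which embryos they came from, so that p-values measure the spread between these libraries.

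In the cytosol, HSP70 chaperones bind exposed hydrophobic stretches with the help of J proteins, HSP90 finishes many kinases and receptors, and HSF1 is the transcription factor that induces both when unfolded protein accumulates. In the ER lumen the HSP70 member BiP, the HSP90 member Grp94, the lectins calnexin and calreticulin and the protein disulfide isomerases fold secreted proteins, which in fibroblasts means above all collagen and other matrix. Proteins that fail are returned to the cytosol for degradation by the SEL1L and HRD1 complex. The sensors IRE1, ATF6 and PERK raise ER chaperones in the unfolded protein response, largely through promoter elements that ATF6 and XBP1 bind.

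Sequencing depth was 7313007 to 26019167 counts a library, with 16036 to 17307 genes detected in each. The lowest member count in any library was 114, for Sdf2l1. The summed level of 14 fibroblast markers, in CPM (counts scaled to library size with TMM factors), was 62000 to 63800 in WM-2474 and 59100 to 60300 in DMSO at 240 h, against 36800 to 42900 in WM-2474 and 37200 to 43000 in DMSO at 96 h. None of the 14 was at 0, and their part in the time changes below was not tested. B lineage markers stood apart in 2 DMSO libraries of 240 h, with summed levels of 30 and 34.1 CPM over 23 genes, against 1.28 to 6.42 CPM in the other 10 libraries. Xist, the RNA of the inactive X chromosome of female cells, was at 5.24 and 4.48 CPM in those 2 libraries and at 0 to 0.925 CPM in the other 10, beside a label of male for all. Sums of 8 epithelium markers were 14.6 to 17.7 CPM at 240 h and 24.5 to 32.1 CPM at 96 h, and those of 11 macrophage markers 5.18 to 8.03 CPM at 240 h and 7.31 to 9.69 CPM at 96 h. Sums of 8 endothelium markers were 7.69 to 9.48 CPM at 240 h and 10.6 to 13.6 CPM at 96 h. Plasma cell markers, which matter here because such cells are rich in ER chaperones, summed to 183 to 202 CPM at 240 h and 133 to 174 CPM at 96 h. Nearly all of that was Sdc1, at 173 to 197 CPM and 130 to 173 CPM, while Tnfrsf17 was at 0 in 11 libraries. The part of these other markers in the results was not tested. In bulk RNA, a change in the share of cells of a type and a change in RNA per cell cannot be told apart.

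The promoters of the ER members share an element in part, and it is shown here because the time changes are later read by it. RefSeq promoter windows, from 250 bases before to 50 after each start on build GRCm38.p6, were found for 31 of the 39 members, 12 cytosolic or mitochondrial and 19 ER. The ER stress response element, CCAAT and then, after 9 bases of any kind, CCACG on either strand, was present in 8 of the 19 ER windows (42.1%), in 0 of the 12 others, and in 0.137% of the windows of 27025 genes. The 8 genes were Hspa5, Hsp90b1, Dnajc3, Creld2, Calr, Canx, Pdia6 and Syvn1. A second form, in which ATTGG and CCACG are 1 base apart, was in Dnajb11 and Herpud1 (10.5% of the ER windows, 0.0444% of all), and TGACGTGG, a letter string that XBP1 and ATF6 can bind, was in no member and in 0.714% of all. The heat shock element, searched as GAA, TTC and GAA or as TTC, GAA and TTC with 2 bases of any kind between them, forms that overlap where repeats run on, was in Hsph1, Hspd1 and Hspe1 (25% of the 12 windows, 0.662% of all) and in no ER window. The heat shock matches of Hspd1 and Hspe1 are a single shared stretch, and that of Hsph1 begins 36 or 15 bases after its RefSeq starts. A match is a description of letters, and a window without a match says nothing about binding. The sequences below are read 5′ to 3′ on the strand of the gene, with the element in capitals, and Hsp90b1, Calr and Creld2 hold it in reverse complement, as CGTGG and then ATTGG. The first lies at chr2:34772020-34772048 (+), the others in turn at chr10:86705511-86705573 (-), chr8:84847053-84847115 (-), chr15:88819498-88819560 (+), chr12:17266469-17266531 (+), chr8:94386355-94386409 (+) and chr1:55088053-55088082 (+).
Hspa5: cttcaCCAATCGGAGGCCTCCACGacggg
Hsp90b1: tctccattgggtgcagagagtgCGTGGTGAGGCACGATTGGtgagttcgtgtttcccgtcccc
Calr: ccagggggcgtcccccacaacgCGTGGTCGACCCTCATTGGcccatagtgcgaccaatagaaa
Creld2: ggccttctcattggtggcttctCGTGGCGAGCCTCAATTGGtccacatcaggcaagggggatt
Pdia6: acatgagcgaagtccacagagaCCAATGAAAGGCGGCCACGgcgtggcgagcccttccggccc
Herpud1: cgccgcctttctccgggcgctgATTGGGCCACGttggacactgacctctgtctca
Hspe1: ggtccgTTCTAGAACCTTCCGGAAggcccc

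The element began 65 bases before the start of Hspa5, 107 before Hsp90b1, 162 before Calr, 126 before Creld2 and 98 before Pdia6. Hsp90b1 held a further copy upstream of the printed one. Herpud1 carries the second form, starting 52 bases before its start. The stretch of Hspe1, from 89 to 72 bases before its start, holds overlapping heat shock elements. Hspd1, its partner in the mitochondrial folding cage, is read in the opposite direction, and RefSeq gives it 2 starts. From the inner start, 216 bases from that of Hspe1, the stretch lies between the genes. From the outer start, which lies 95 bases inside Hspe1, it falls within an exon of Hspd1.

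Levels set per length, as reads per kilobase and library size (RPKM), spanned a wide range within each compartment. Between the cytosolic HSP90 and HSP70 paralogs named here, the constitutive forms were far above the inducible ones. Hsp90ab1, the constitutive HSP90, had a median of 924 RPKM over the 12 libraries, against 102 RPKM for its inducible paralog Hsp90aa1. Hspa8, the constitutive HSP70, had a median of 480 RPKM, against 49.3 RPKM for Hspa1b and 11.1 RPKM for Hspa1a, the stress-inducible copies. Of the 31-base words in their transcripts, 65.4% in Hspa1a, 68% in Hspa1b and 51.4% in Hsp90aa1 also occur in other genes. That share was 43.5% in Hspa8 and 13.2% in Hsp90ab1. How reads that fit several genes were counted is not given, and its part in these levels was not tested. The regulator Hsf1 stood at 28.0 RPKM, with a range of 26.9 to 31.4 RPKM.

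In the ER, the most abundant members were lumenal chaperones and isomerases, and the least abundant were the sensor genes Ern1 and Atf6. Other lumenal members were far lower, such as Dnajb9 with a median of 13.8 RPKM. Xbp1, grouped with the sensors, had a median of 67.2 RPKM. Calr, the lectin and calcium store calreticulin, had a median of 601 RPKM, Hsp90b1, which encodes Grp94, 492 RPKM and Hspa5, which encodes BiP, 428 RPKM. The isomerases P4hb and Pdia3 stood at 484 and 436 RPKM. The ranges of P4hb (452 to 520 RPKM), Hsp90b1 (456 to 522 RPKM) and Hspa8 (445 to 488 RPKM) overlapped, so that their order was within the spread of libraries. Ern1, the gene of the sensor IRE1, had 4.43 RPKM and Atf6 8.97 RPKM, the lowest medians of the 39. By rank among the 13499 tested genes the members ran from the 32.6th percentile (Ern1) to the 99.8th (Hsp90ab1). The coefficient of variation within groups was 0.659% for Pdia4, the steadiest member, and 8.48% for Hspa1a, the least steady.

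**Figure D1:**
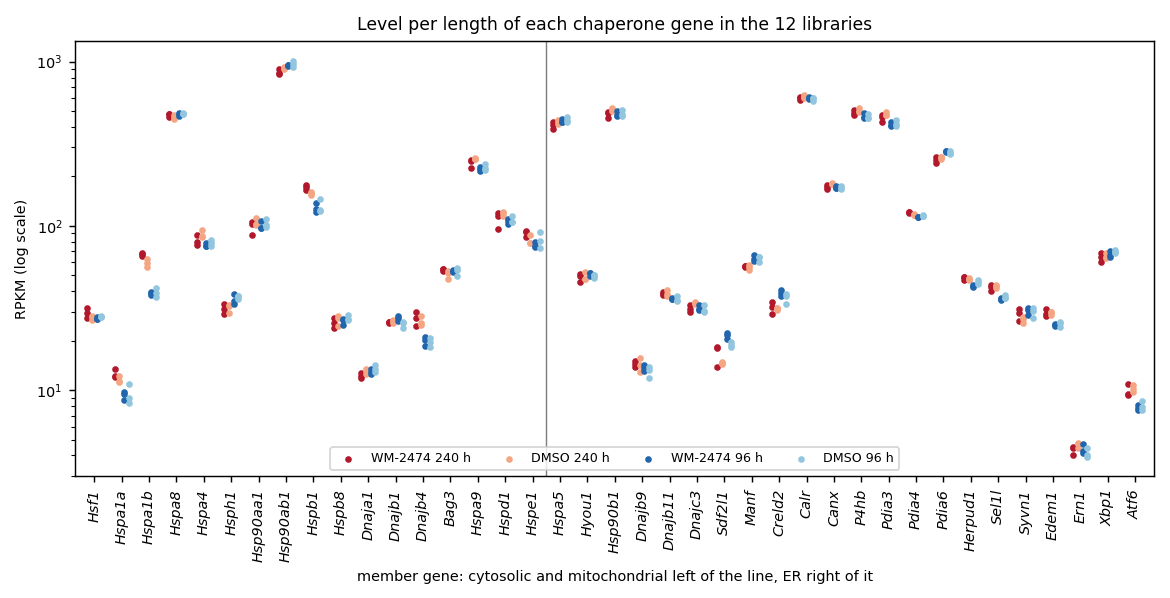
Level per length of each of the 39 members in the 12 libraries, in RPKM on a log axis, coloured by treatment and time, with cytosolic and mitochondrial genes left of the line and ER genes right of it. Medians run from 4.43 RPKM for Ern1 to 924 RPKM for Hsp90ab1, and for most genes the 4 groups lie close together.

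The summed level of the 22 ER members averaged 9135 ± 259 CPM in WM-2474 and 9451 ± 158 CPM in DMSO at 240 h, against 9042 ± 72.7 CPM in WM-2474 and 9059 ± 192 CPM in DMSO at 96 h (SD, n = 3 each). The 17 cytosolic and mitochondrial members together averaged 5832 ± 227 CPM in WM-2474 and 5995 ± 102 CPM in DMSO at 240 h, against 5828 ± 99.0 CPM in WM-2474 and 5925 ± 158 CPM in DMSO at 96 h (SD, n = 3 each). The ratio of the ER sum to the other, which no scaling factor touches, was 1.55 to 1.59 at 240 h and 1.52 to 1.57 at 96 h, so that the times overlapped. Hspa5 made up 11.4 to 12.2% of the ER sum at 240 h and 12.4 to 13% at 96 h, without overlap.

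WM-2474 was compared with DMSO at each time, which asks whether an inactive control compound leaves the folding machinery as its vehicle does. At 96 h, 0 of the 39 members passed an adjusted p of 0.05 (edgeR quasi-likelihood F test, Benjamini-Hochberg adjustment over all genes), and 0 of the 13499 genes did. At an unadjusted p under 0.05 there was 1 member, Dnajb1, where 2.10% of all genes had one. DESeq2 and limma-voom called 0 members as well. The fitted log2 fold changes of the members lay between -0.10 and 0.18, and their 95% intervals between -0.25 and 0.36. The median was -0.02 over the members and near 0 (9.8e-05) over all genes. In a fit of the 6 libraries of 96 h blocked by replicate number, 3 genes were higher in the whole table and members still numbered 0.

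At 240 h, 0 members passed and 0.0296% of all genes did, each of them higher in WM-2474, so that 0 of all genes were lower. At an unadjusted p under 0.05 there were 4 members, where 8.14% of all genes had one, and limma-voom called 0 members. DESeq2 called 0 as well, but gave 11 of the 39 no adjusted p. The count over all genes became 0 when WM-2474 replicate 1 or 2 or DMSO replicate 1 or 2 of 240 h was left out, and 7 higher and 12 lower without DMSO replicate 3 of 240 h. The members' log2 fold changes lay between -0.12 and 0.17, and their 95% intervals between -0.28 and 0.38, with a median of -0.02. Over the average of both times 0 members passed, against 0.0148% of all genes, while 2 members, Hspa4 and Sdf2l1, had an unadjusted p under 0.05, against 5.65% of all genes. The effect of WM-2474 differed between 240 h and 96 h for 0 members and 0 genes at the adjusted threshold, and 2 members had an unadjusted p under 0.05, against 4.63% of all genes. The intervals bound the differences that these libraries leave possible and do not show that the groups are alike. In a fit of only the libraries of 240 h blocked by replicate number, 79 genes were higher and 12 lower. Members still numbered 0 in that fit.

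**Figure D2:**
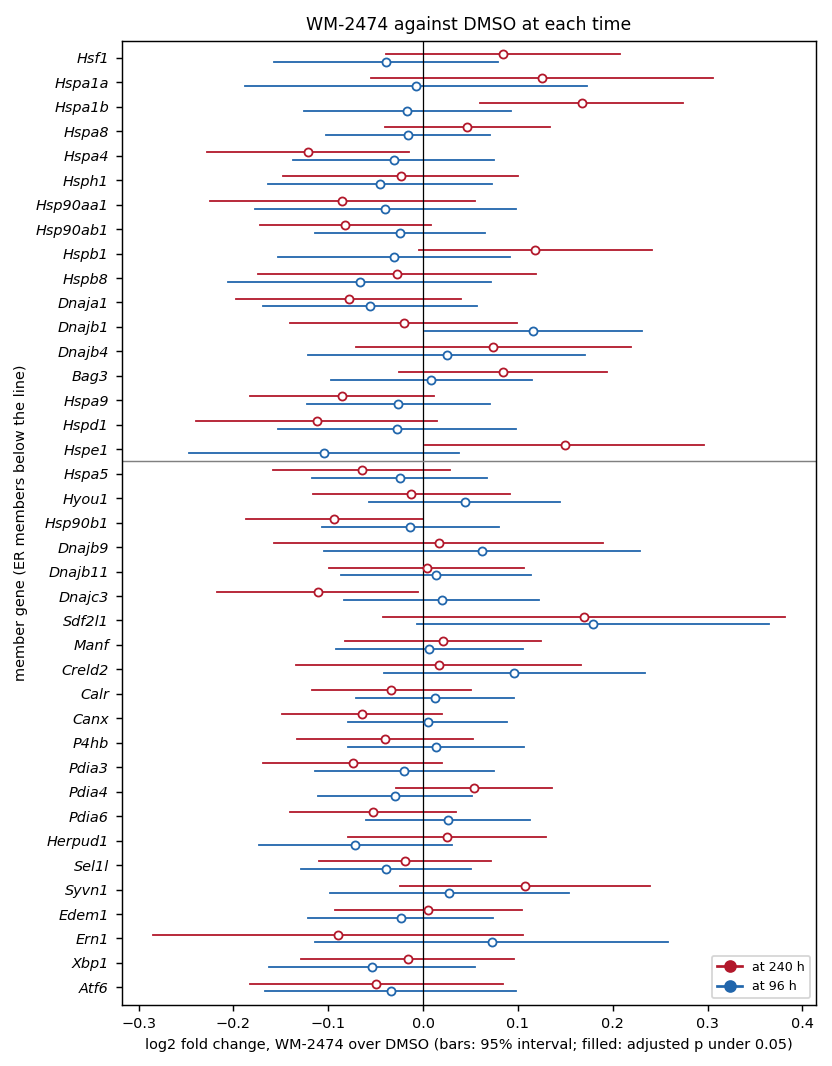
Log2 fold change of each member, WM-2474 over DMSO, at 240 h (red) and at 96 h (blue), as points with 95% intervals, and all points open because none passed an adjusted p of 0.05. The points lie between -0.12 and 0.17 at 240 h and between -0.10 and 0.18 at 96 h.

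The members with the smallest p in these comparisons were heat shock genes and ER cofactors. At 240 h the smallest belonged to Hspa1b, an inducible HSP70, which had 191, 184 and 192 CPM in WM-2474 and 167, 159 and 177 CPM in DMSO. The 3 WM-2474 libraries lay above the 3 DMSO libraries, in a member picked for its small p. Its log2 fold change was 0.17 ± 0.05 (SE), with an unadjusted p of 0.00356 and an adjusted p of 0.442. Hspa4, an HSP110-type exchange factor for HSP70, had 355, 372 and 410 CPM in WM-2474 and 398, 437 and 402 CPM in DMSO at 240 h. These libraries overlapped, and the log2 fold change was -0.12 ± 0.05 (SE, adjusted p = 0.557).

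At 96 h the smallest p belonged to Dnajb1, the J protein partner of inducible HSP70, with 59.5, 62.2 and 63.9 CPM in WM-2474 and 54.2, 57.9 and 59.1 CPM in DMSO. The groups did not overlap, though by a narrow margin, and the log2 fold change was 0.12 ± 0.06 (SE, adjusted p = 1.00). Sdf2l1, a cofactor of BiP in the ER, had 22.8, 24.5 and 24.0 CPM in WM-2474 and 21.7, 20.8 and 20.3 CPM in DMSO. These did not overlap either, with a log2 fold change of 0.18 ± 0.09 (SE, adjusted p = 1.00). Members picked for a small p tend to separate. The share of all genes whose libraries stay apart within a time or within a treatment was not counted. Across the alternative settings 0 members passed in any comparison of WM-2474 with DMSO, where DESeq2 left 11 members without an adjusted p at 240 h.

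Hspe1 and Hspa1b had the smallest p for a difference of the WM-2474 effect between the times. Hspe1, the co-chaperonin of mitochondrial HSP60, had 70.5, 71.2 and 66.1 CPM in WM-2474 and 60, 67.9 and 60.7 CPM in DMSO at 240 h. At 96 h it had 58.1, 57.1 and 61.0 CPM in WM-2474 and 56.6, 62.3 and 70.7 CPM in DMSO. The treatments overlapped at both times. The effects differed by 0.25 ± 0.10 on the log2 scale for Hspe1 and by 0.18 ± 0.07 for Hspa1b (SE, adjusted p = 0.977 for each).

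Culture time moved the chaperones about as often as other genes. Averaged over both treatments, 13 members were higher and 6 lower at 240 h than at 96 h (48.7%), beside 46.5% of all 13499 genes, 23.0% higher and 23.6% lower. That share is near the background. The median log2 fold change was 0.04 over the members and -0.01 over all genes. The median size regardless of sign was 0.10 over the members and 0.16 over all genes. By compartment, 6 of the 17 cytosolic and mitochondrial members rose and 2 fell (median 0.04), and 7 of the 22 ER members rose and 4 fell (median 0.05). The direction of the small changes rests on scaling. Scaled by library totals instead of TMM factors, the median of all genes moved to -0.14, and 7 members were higher and 20 lower, where all genes split into 1536 higher and 5996 lower.

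Within WM-2474, 10 members were higher and 6 lower at 240 h than at 96 h (41.0%), beside 30.7% of all genes, 15.9% higher and 14.8% lower. Within DMSO, 11 were higher and 4 lower (38.5%), beside 34.8% of all genes, 17.5% higher and 17.3% lower. With library totals the splits were 5 higher and 17 lower in WM-2474, beside 1097 and 4391 of all genes, and 3 higher and 15 lower in DMSO, beside 1190 and 4381 of all genes. Without the 2 DMSO libraries that held B lineage transcripts, which leaves a single library whose spread is assumed to be that of the other groups, 6 members were higher and 0 lower in DMSO, beside 1489 and 1374 of all genes. The 2 time comparisons share no libraries. They had 12 called members in common, 8 higher and 4 lower, which is 75% of the 16 called in WM-2474 and 80% of the 15 called in DMSO. Over all genes those shares were 77.6% and 68.6%. The sign was the same for 31 of the 39 members (79.5%) and for 79.7% of all genes, so that the members stood near the background. Single calls within a treatment were fragile. In WM-2474, 7 of the 16 kept the call and the direction under every alternative run, namely Hspa1a, Hspa1b, Hspb1, Dnajb4, Creld2, Pdia6 and Atf6. In DMSO 3 of the 15 did, namely Hspa1b, Dnajb4 and Atf6. The runs include the fit with a single DMSO library of 240 h, which weighs on the DMSO comparison, so the treatments were not held to like runs. In that fit alone the DMSO calls of Hsph1, Sdf2l1 and Manf were lost, and with library totals alone those of Hspb1, Sel1l and Edem1. The members called in WM-2474 alone were Hsp90ab1, Hspe1, Pdia6 and Herpud1, and those called in DMSO alone were Hspa4, Hspa9 and P4hb. The test of the difference passed for none of them. Dnajb11 passed in the average alone.

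**Figure D3:**
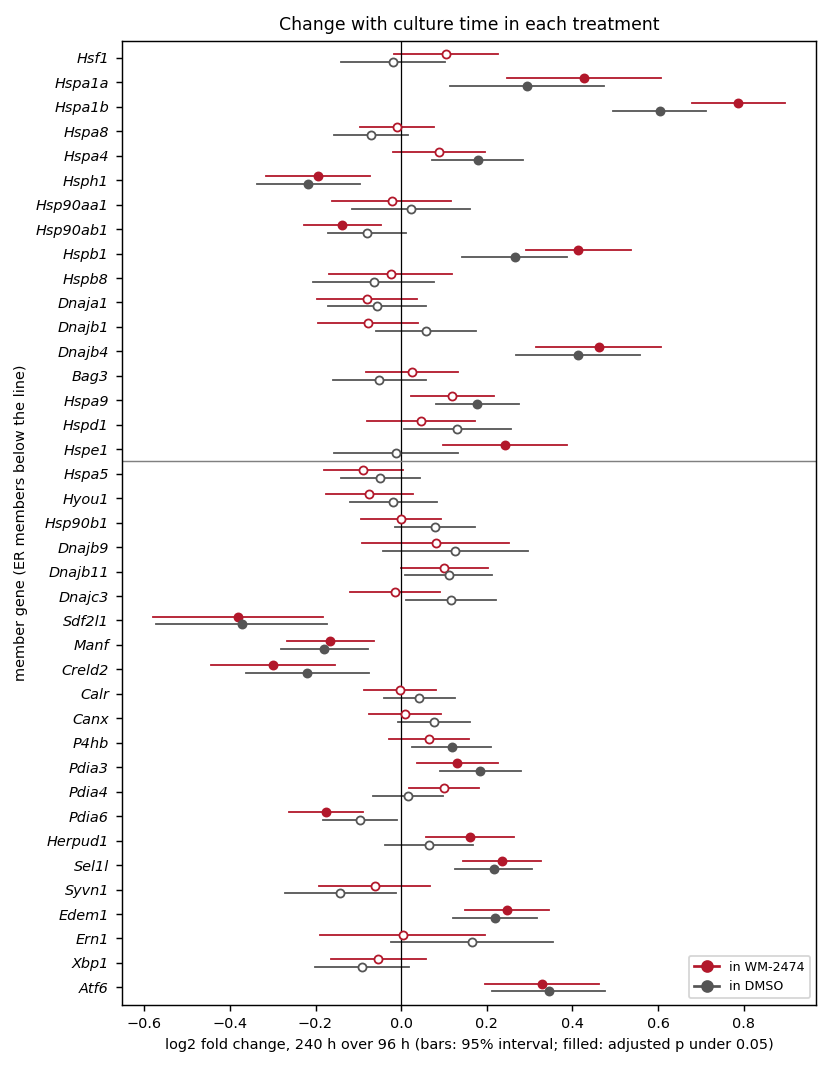
Log2 fold change of each member, 240 h over 96 h, in WM-2474 (red) and in DMSO (grey), as points with 95% intervals, filled where the adjusted p was under 0.05. Hspa1b (0.79 in WM-2474 and 0.60 in DMSO) lies farthest to the right and Sdf2l1 (-0.38 and -0.37) farthest to the left. With library totals the points move to the left, so that 12 members in WM-2474 and 10 in DMSO change sign. Among the called ones these are Pdia3 in WM-2474 and P4hb in DMSO.

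Libraries of the 2 times did not overlap at all, 6 against 6, for 14 of the 39 members, 10 higher and 4 lower at 240 h, beside 25.0% of all genes. The 10 were Hspa1a, Hspa1b, Hspb1, Dnajb4, Dnajb11, Pdia4, Herpud1, Sel1l, Edem1 and Atf6. The 4 were Hsph1, Hsp90ab1, Manf and Pdia6. Of the 19 members called in the average, 13 kept the call and the direction under each of 20 alternatives. They were Hspa1a, Hspa1b, Hspb1, Dnajb4, Sel1l, Edem1 and Atf6 on the higher side, and Hsph1, Hsp90ab1, Sdf2l1, Manf, Creld2 and Pdia6 on the lower.

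The inducible HSP70 genes rose with time, while Hsf1 levels overlapped. Hspa1b (GeneID 15511, chr17:34956429-34959238) had 191, 184 and 192 CPM in WM-2474 and 167, 159 and 177 CPM in DMSO at 240 h, against 112, 107 and 110 CPM in WM-2474 and 110, 104 and 118 CPM in DMSO at 96 h. Every library of 240 h lay well above every library of 96 h. Over both treatments the log2 fold change was 0.70 ± 0.04 (SE, adjusted p = 3.2e-14), a fold of 1.62, the largest rise among the members. Hspa1a (GeneID 193740, chr17:34969359-34972156), its neighbouring copy, had 37.4, 34.3 and 33.6 CPM in WM-2474 and 31.7, 34.0 and 31.4 CPM in DMSO at 240 h, against 27.4, 24.4 and 26.4 CPM in WM-2474 and 23.3, 25.1 and 30.5 CPM in DMSO at 96 h. Its times did not overlap, although DMSO replicate 3 of 96 h came close. Its log2 fold change was 0.36 ± 0.06 (SE, adjusted p = 3e-05). Within DMSO alone its call, at 0.29, was lost with library totals (0.17, adjusted p = 0.127), without DMSO replicate 1 of 96 h (0.20, adjusted p = 0.0854) and without both DMSO libraries that held B lineage transcripts (0.26, adjusted p = 0.117).

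Reads of these copies are hard to tell apart. Of the 31-base words in the Hspa1a transcripts, 63.8% also occur in Hspa1b, and 67.6% of those of Hspa1b occur in Hspa1a. The sources used here do not give how reads that fit both were counted. The sum of both copies does not rest on how such reads were split, although its level depends on whether they were left out. It was 228, 219 and 225 CPM in WM-2474 and 199, 193 and 208 CPM in DMSO at 240 h, against 139, 131 and 136 CPM in WM-2474 and 133, 129 and 149 CPM in DMSO at 96 h. The sums did not overlap. The log2 difference was 0.64, and an exact two-sided permutation test of the 6 against 6 libraries gave p = 0.00216, the smallest that test can give and the value that any such non-overlap gives. The test takes the 12 libraries as independent, although same-numbered libraries of 96 h deviated together.

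Hsf1 (GeneID 15499, chr15:76477362-76501155), the regulator of these genes, had 63.4, 55.5 and 59.4 CPM in WM-2474 and 56.6, 54.2 and 56.5 CPM in DMSO at 240 h, against 55.0, 54.5 and 55.8 CPM in WM-2474 and 56.4, 56.6 and 56.9 CPM in DMSO at 96 h. The times overlapped, and the log2 fold change was 0.04 with an interval of -0.04 to 0.13 (adjusted p = 0.426). HSF1 is activated at the protein level, which these data do not measure.

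The other HSP70 system members did not move as a block. Hspa4 (GeneID 15525, chr11:53259814-53300479) had 355, 372 and 410 CPM in WM-2474 and 398, 437 and 402 CPM in DMSO at 240 h, against 367, 350 and 351 CPM in WM-2474 and 378, 365 and 348 CPM in DMSO at 96 h. The 3 DMSO libraries of 240 h lay above those of 96 h, while the WM-2474 libraries overlapped, and the average was 0.13 ± 0.04 higher on the log2 scale (SE, adjusted p = 0.00378). With library totals that value was near 0 (0.0049) and the call was lost. Hsph1 (GeneID 15505, chr5:149616843-149636498), the HSP110 exchange factor whose promoter window holds a heat shock element, had 101, 108 and 116 CPM in WM-2474 and 103, 114 and 112 CPM in DMSO at 240 h, against 134, 117 and 121 CPM in WM-2474 and 129, 125 and 130 CPM in DMSO at 96 h. It was lower in every library of 240 h, with a log2 fold change of -0.21 ± 0.04 (SE, adjusted p = 0.000211). Hspa8 had -0.04 with an interval of -0.10 to 0.02.

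Among HSP90 genes, Hsp90ab1 (GeneID 15516, chr17:45567778-45573261) had 2101, 2136 and 2269 CPM in WM-2474 and 2303, 2314 and 2270 CPM in DMSO at 240 h, against 2402, 2368 and 2386 CPM in WM-2474 and 2545, 2413 and 2319 CPM in DMSO at 96 h. The times did not overlap, but DMSO replicate 3 of 96 h lay only just above the libraries of 240 h. The log2 fold change was -0.11 ± 0.03 (SE, adjusted p = 0.00532). Hsp90aa1 had 251 to 319 CPM at 240 h and 275 to 315 CPM at 96 h, a log2 difference with an interval of -0.10 to 0.10.

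Of the small heat shock proteins, which hold unfolded clients without ATP, Hspb1 rose. Hspb1 (GeneID 15507, chr5:135887919-135889563) had 156, 160 and 149 CPM in WM-2474 and 139, 146 and 143 CPM in DMSO at 240 h, against 110, 115 and 124 CPM in WM-2474 and 111, 113 and 132 CPM in DMSO at 96 h. No library of 96 h reached those of 240 h, and the log2 fold change was 0.34 ± 0.04 (SE, adjusted p = 2.5e-07). A pseudogene, Hsp25-ps1, shares 52.3% of its 31-base words. Hspb8, the partner of the co-chaperone Bag3, had a log2 change of -0.04, and Bag3 had -0.01, with intervals of -0.14 to 0.06 and -0.09 to 0.06.

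Among cytosolic J proteins, Dnajb4 (GeneID 67035, chr3:152181580-152210432), a partner of HSP70, had 72.2, 87.7 and 80.8 CPM in WM-2474 and 73.2, 82.3 and 74.7 CPM in DMSO at 240 h, against 61.6, 58.9 and 54.6 CPM in WM-2474 and 60.9, 53.3 and 57.7 CPM in DMSO at 96 h. The times did not overlap, and the log2 fold change of 0.44 ± 0.05 (SE, adjusted p = 7.6e-08) was the next largest after Hspa1b. Dnajb1 and Dnaja1, which serve the same HSP70, had log2 changes of -0.01 and -0.07 (adjusted p = 0.872 and 0.171).

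In mitochondria, Hspa9 (GeneID 15526, chr18:34937414-34954351), the HSP70 of the matrix, had 688, 756 and 764 CPM in WM-2474 and 777, 792 and 773 CPM in DMSO at 240 h, against 699, 676 and 657 CPM in WM-2474 and 725, 683 and 661 CPM in DMSO at 96 h. WM-2474 replicate 1 of 240 h fell within the libraries of 96 h, and the others of 240 h lay above them all. Its log2 fold change was 0.15 ± 0.03 (SE, adjusted p = 0.000624), and 0.02 with the call lost under library totals. Hspd1, the HSP60 subunit, had 0.09 (interval -0.00012 to 0.18) and Hspe1 0.12 (0.01 to 0.22), with adjusted p of 0.0955 and 0.0593.

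**Figure D4:**
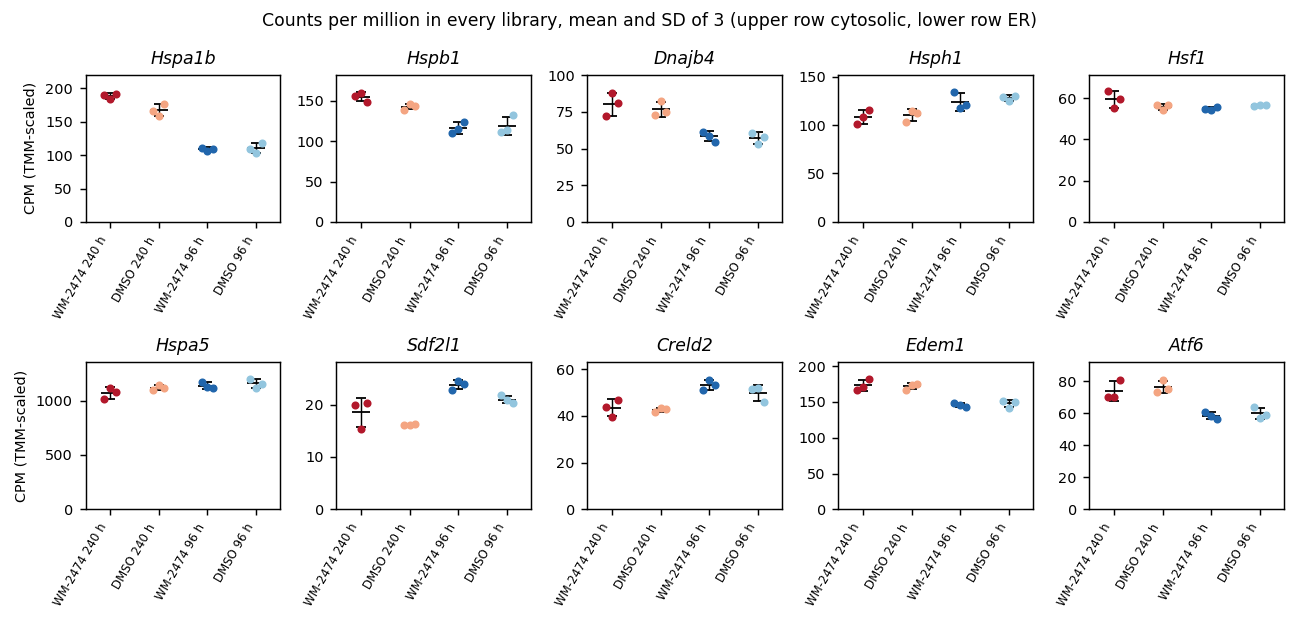
CPM of 10 members in every library, with the mean and SD of 3, for cytosolic genes in the upper row and ER genes in the lower row, and groups in the order WM-2474 240 h, DMSO 240 h, WM-2474 96 h and DMSO 96 h. Hspa1b, Hspb1, Dnajb4, Edem1 and Atf6 are higher at 240 h in every library, Hsph1 is lower in every library, and the times overlap for Hsf1 and Hspa5.

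In the ER, the genes of BiP, Grp94 and Hyou1 did not pass the test, while the BiP cofactors Sdf2l1 and Manf and the ER protein Creld2 fell. Hspa5 (GeneID 14828, chr2:34772090-34776529), whose element is printed above, had 1012, 1118 and 1081 CPM in WM-2474 and 1096, 1147 and 1115 CPM in DMSO at 240 h, against 1171, 1126 and 1116 CPM in WM-2474 and 1202, 1120 and 1151 CPM in DMSO at 96 h. The times overlapped, and the log2 fold change of -0.07 (interval -0.13 to -0.0027) did not pass, with an adjusted p of 0.0821. It did pass without WM-2474 replicate 2 of 240 h, at -0.08 (adjusted p = 0.0417), without DMSO replicate 2 of 96 h, at -0.08 (adjusted p = 0.0488), and with library totals, at -0.20. Hsp90b1 had a log2 change of 0.04 (interval -0.03 to 0.10) and Hyou1, the exchange factor of BiP, -0.05 (-0.12 to 0.03).

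Sdf2l1 (GeneID 64136, chr16:17130138-17132383) had 19.9, 15.2 and 20.4 CPM in WM-2474 and 16.1, 16 and 16.3 CPM in DMSO at 240 h, against 22.8, 24.5 and 24.0 CPM in WM-2474 and 21.7, 20.8 and 20.3 CPM in DMSO at 96 h. Within each treatment the times were apart, and over both they touched, since WM-2474 replicate 3 of 240 h stood at the level of DMSO replicate 3 of 96 h. Over both treatments the log2 fold change was -0.38 ± 0.07 (SE, adjusted p = 5.9e-05), the largest fall among the members. Creld2 (GeneID 76737, chr15:88819646-88826681), a stress-inducible ER protein with an element in its window, had 43.8, 39.5 and 46.9 CPM in WM-2474 and 41.6, 43.3 and 43.0 CPM in DMSO at 240 h, against 51.0, 55.5 and 53.1 CPM in WM-2474 and 51.4, 52.1 and 45.7 CPM in DMSO at 96 h. A single library of 96 h, DMSO replicate 3, lay below the highest of 240 h. The log2 fold change was -0.26 ± 0.05 (SE, adjusted p = 0.000108).

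Manf (GeneID 74840, chr9:106888753-106891938), a secreted survival factor that stabilises BiP complexes, had 126, 125 and 124 CPM in WM-2474 and 119, 127 and 124 CPM in DMSO at 240 h, against 146, 138 and 135 CPM in WM-2474 and 143, 133 and 142 CPM in DMSO at 96 h. It was lower in every library of 240 h, with a log2 fold change of -0.17 ± 0.03 (SE, adjusted p = 0.000212). Dnajb11 (GeneID 67838, chr16:22857845-22879634), a J protein of BiP, went the other way, with 123, 128 and 125 CPM in WM-2474 and 132, 124 and 121 CPM in DMSO at 240 h, against 116, 117 and 118 CPM in WM-2474 and 121, 112 and 114 CPM in DMSO at 96 h. The libraries were apart by a narrow margin. Over both treatments the log2 fold change was 0.11 ± 0.03 (SE, adjusted p = 0.0142), but -0.02 with library totals, and the call was lost without the 2 DMSO libraries with B lineage transcripts (0.08, adjusted p = 0.122). The J proteins Dnajb9 and Dnajc3 had 0.10 and 0.05, and neither passed.

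The lectins Calr and Canx, which hold glycoproteins for folding, had log2 changes of 0.02 and 0.04, with intervals of -0.04 to 0.08 and -0.02 to 0.10. Among the isomerases, which make and shuffle disulfides, 2 of 4 rose and 1 fell, where 46.5% of all genes were called. Pdia3 (GeneID 14827, chr2:121413902-121438687), which works with the lectins, had 1135, 1247 and 1224 CPM in WM-2474 and 1257, 1296 and 1244 CPM in DMSO at 240 h, against 1131, 1079 and 1082 CPM in WM-2474 and 1168, 1103 and 1067 CPM in DMSO at 96 h. The times overlapped by a single pair of libraries. Its log2 fold change was 0.16 ± 0.03 (SE, adjusted p = 0.000256), and 0.03 with the call lost under library totals. Pdia6 (GeneID 71853, chr12:17266589-17284785), which carries an element in its window, had 532, 514 and 557 CPM in WM-2474 and 540, 562 and 560 CPM in DMSO at 240 h, against 607, 598 and 606 CPM in WM-2474 and 607, 589 and 581 CPM in DMSO at 96 h. No library of 240 h reached those of 96 h, and the log2 fold change was -0.14 ± 0.03 (SE, adjusted p = 0.000519). P4hb, also a subunit of the collagen hydroxylase, had 0.09 ± 0.03 (SE, adjusted p = 0.0207), -0.04 with library totals. Its call was lost when any of 5 single libraries was left out, namely WM-2474 replicate 3 or DMSO replicate 2 of 240 h, WM-2474 replicate 1 or 3 of 96 h, or DMSO replicate 3 of 96 h (0.0762 to 0.0833, adjusted p = 0.0556 to 0.0657). Pdia4 had 0.06 (interval 0.00016 to 0.12, adjusted p = 0.0942), although its libraries did not overlap.

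Of the 4 degradation members 3 rose and Syvn1 did not pass, beside 46.5% of all genes called. Sel1l (GeneID 20338, chr12:91806043-91849157), the adaptor of the membrane ubiquitin ligase, had 254, 266 and 276 CPM in WM-2474 and 271, 274 and 263 CPM in DMSO at 240 h, against 224, 225 and 228 CPM in WM-2474 and 238, 229 and 228 CPM in DMSO at 96 h. Edem1 (GeneID 192193, chr6:108824045-108859356), which marks misfolded glycoproteins for export, had 166, 171 and 182 CPM in WM-2474 and 167, 174 and 175 CPM in DMSO at 240 h, against 148, 146 and 143 CPM in WM-2474 and 152, 142 and 150 CPM in DMSO at 96 h. Both genes were higher in every library of 240 h. Both log2 fold changes were 0.23 ± 0.03, with adjusted p of 1.2e-06 for Sel1l and 2.7e-06 for Edem1. Herpud1 (GeneID 64209, chr8:94386429-94395371), a membrane scaffold of the same complex with the second element form, had 91.9, 87.8 and 91.6 CPM in WM-2474 and 87.2, 90.2 and 88.9 CPM in DMSO at 240 h, against 80.5, 82.2 and 79.6 CPM in WM-2474 and 83.2, 87.0 and 84.6 CPM in DMSO at 96 h. DMSO replicate 2 of 96 h lay just under the lowest library of 240 h. The log2 fold change was 0.11 ± 0.04 (SE, adjusted p = 0.0104), but -0.02 with library totals. Syvn1, which encodes the ligase HRD1 itself, had -0.10 (interval -0.19 to -0.01, adjusted p = 0.0613).

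Of the sensors, Atf6 (GeneID 226641, chr1:170704457-170868585), the membrane-bound factor that is cut free under ER stress, had 70.3, 70.1 and 80.9 CPM in WM-2474 and 73.1, 80.4 and 75.3 CPM in DMSO at 240 h, against 60.9, 58.2 and 56.3 CPM in WM-2474 and 63.9, 56.8 and 58.8 CPM in DMSO at 96 h. Every library of 240 h was above every library of 96 h, with a log2 fold change of 0.34 ± 0.05 (SE, adjusted p = 1e-06), the largest rise in the ER group. Xbp1 (GeneID 22433, chr11:5520641-5525993), the factor that IRE1 activates by splicing, had 109, 124 and 116 CPM in WM-2474 and 124, 114 and 116 CPM in DMSO at 240 h, against 126, 119 and 117 CPM in WM-2474 and 122, 129 and 125 CPM in DMSO at 96 h. The times overlapped, with a log2 change of -0.07 (interval -0.15 to 0.01, adjusted p = 0.124). Counts per gene do not separate its spliced form. Ern1 had 0.08 with an interval of -0.05 to 0.22.

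Read by promoter element, the ER members that carry the CCAAT and CCACG element numbered 0 higher, 2 lower (Creld2 and Pdia6) and 6 that did not pass, with a median log2 change of -0.02. The 11 ER members with a window and without that element numbered 6 higher, 1 lower and 4 that did not pass, with a median of 0.10. Among them, the window of Edem1 (chr6:108828391-108828690) lies inside the gene as given above. The region before its first base, 108824045, was not searched. Of the 6 higher ones, Dnajb11 and Herpud1 carry the second form of the element. The other 3 ER members had no window, and of these Atf6 was higher and Manf lower. Of all genes, 23.0% were higher and 23.6% lower. With library totals the carriers were 0 higher and 7 lower. Of the 11 without that element, Dnajb11, P4hb, Pdia3 and Herpud1 then lost their calls, and Pdia4 and Xbp1 were called lower. The difference between carriers and the others was not tested.

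The wider folding machinery gives the setting, from lists of other genes of the same pathways, chosen with earlier results of these data known. The list named for collagen and proline isomerase chaperones of the ER holds other genes too, among them Calu. It passed in 12 of 12, 11 higher and 1 lower (median log2 change 0.35), beside 46.5% of all genes. With library totals 9 were higher and 1 lower. Calu, a calcium-binding protein of the secretory pathway, averaged 1748 CPM in WM-2474 and 1827 CPM in DMSO at 240 h, against 1277 CPM in WM-2474 and 1284 CPM in DMSO at 96 h (log2 change 0.48, adjusted p = 1.8e-12). Fkbp10, a collagen chaperone, averaged 685 CPM in WM-2474 and 668 CPM in DMSO at 240 h, against 508 CPM in WM-2474 and 504 CPM in DMSO at 96 h (log2 change 0.42, adjusted p = 9e-11). Fkbp2 was the exception, at -0.28 (adjusted p = 0.00171).

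Other folding and redox enzymes of the ER rose in 14 and fell in 2 of 20 (median 0.16), a split of 6 and 3 with library totals. The disulfide enzymes Pdia5 and Qsox1 changed by 0.78 and 0.51 on the log2 scale. The oxidase Ero1b, at 1.22 to 2.82 CPM at 240 h and 2.77 to 4.31 CPM at 96 h, changed by -0.80. Txndc11 changed by -0.12 and lost its call in 6 of 20 alternatives, among them DESeq2 (adjusted p = 0.0743). Other degradation genes rose in 9 and fell in 1 of 16 (median 0.09), with Erlec1 at 0.42, Ube2g2 at 0.33 and Edem2 at -0.24. Other genes of unfolded protein response signalling rose in 8 and fell in 1 of 12 (median 0.14), with Creb3l1, an ER-bound factor for matrix genes, at 0.61, Trib3 at 0.33 and Atf4 at -0.12. The translocon rose in 5 and fell in 2 of 13 (median 0.05), with Ssr4 at 0.30, Sec62 at 0.28, Spcs3 at -0.22 and Spcs2 at -0.12. With library totals these splits were 5 and 3 for degradation, 3 and 2 for signalling, and 3 and 5 for the translocon. The called shares as reported were 80% for folding and redox enzymes, 62.5% for degradation, 75% for signalling and 53.8% for the translocon. Of all genes, 46.5% were called, 23.0% higher and 23.6% lower, and with library totals 1536 were higher and 5996 lower.

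Outside the ER, other cytosolic co-chaperones and HSF genes rose in 11 and fell in 9 of 32 (median 0.05), or 4 and 13 with library totals. Hspa2, an HSP70 known from the testis, changed most, with 26.9 to 33.7 CPM over the libraries of 240 h against 11.6 to 15.0 CPM over those of 96 h (log2 change 1.25 ± 0.07, SE, adjusted p = 3.3e-14). Dnajb5 changed by 0.43, and the HSP90 co-chaperone Fkbp4 by -0.42 and Dnajb2 by -0.37. The CCT chaperonin and prefoldin, which fold actin and tubulin, rose in 5 and fell in 0 of 14 (median 0.08), or 0 and 4 with library totals. Their Pfdn5 had 0.18 and Cct2 0.11, which turned to -0.02 with library totals. Other mitochondrial chaperones and proteases rose in 3 and fell in 2 of 9 (median -0.06), with the protease Lonp1 at 0.13, Dnaja3 at 0.16, Clpp at -0.25 and Clpx at -0.15, or 0 and 4 with library totals. The called shares as reported were 62.5% for the co-chaperones, 35.7% for CCT and prefoldin and 55.6% for the mitochondrial list. Of all genes, 46.5% were called.

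**Figure D5:**
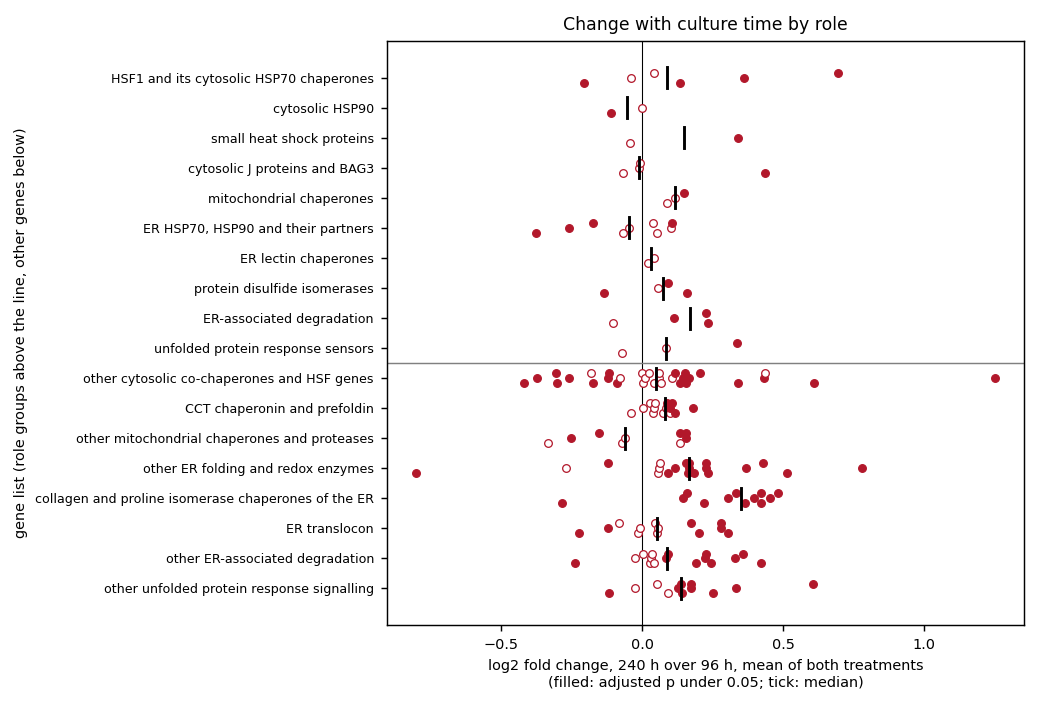
Log2 fold change, 240 h over 96 h, averaged over both treatments, of each member by role above the line and of other folding genes by list below it, filled where the adjusted p was under 0.05, with a tick at the median. The list named for collagen and proline isomerase chaperones, which also holds Calu, lies farthest to the right, with a median of 0.35. With library totals all points move left, the median of all genes to -0.14.

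Sequence shared with other genes limits some of these values. Of the 39 members, 10 share at least 10% of their 31-base words with another gene, 9 of them cytosolic or mitochondrial (Hspa1a, Hspa1b, Hspa8, Hsp90aa1, Hsp90ab1, Hspb1, Dnaja1, Hspd1 and Hspe1) and 1 in the ER (Dnajb9). An exon of a gene on the opposite strand overlaps 10 members, among them Manf, Pdia3, Pdia6 and Syvn1. The kit marks strand, but the sources used here do not give whether the counting used it, and these 10 are uncertain. Exons of other genes on the same strand overlap Hspa8, Dnaja1, Hsp90b1, Manf (Rbm15b) and Pdia4, and strand cannot separate those. The part of that overlap in the values was not tested.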

How the data were processed

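The deposited table holds raw, not normalized counts for each gene of the mouse, beside its exon length. Per the submitters' processing notes, featureCounts on mm10 made it, and per the labels the libraries came from a stranded mRNA kit. Aligner, versions, annotation, strand and multi-mapping settings are not given in the sources used here.

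Of 27179 entries, 874 had no identifier and were left out (0.547 to 0.648% of a library's counts). GRCm38.p6 annotation named 25275 of the other 26305 (96.1%). filterByExpr kept 13499 genes. TMM factors were 0.943 to 0.967 at 240 h and 1.04 to 1.05 at 96 h. edgeR 4.0.16 (R 4.3.3) fitted all 12 libraries with 1 coefficient per group (common biological variation 5.22%), with two-sided p-values from its quasi-likelihood F test adjusted by Benjamini-Hochberg over all genes, with a threshold of 0.05. The fit was tested on simulated data. CPM are TMM-scaled, and RPKM divide them by the deposited length. A floor of 3 counts is 0.115 to 0.410 CPM and covers counting error only. Replicate pairs were checked for duplication (chi-square per degree of freedom 2.02 to 4.99).

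The members and all lists were chosen with earlier results of these data known. Values per library are given for members past the test in the time average (up to 6 rises and 6 falls per compartment), for Hspa5, Xbp1, Hsf1, Hspa1a and Hspa1b, and for the 2 smallest p in each treatment comparison and in the difference. For other lists the 2 risers and 2 fallers with the smallest p are named. Same-numbered libraries of both treatments deviated together at 96 h (correlations 0.301, 0.235 and 0.191), so the numbers were taken to pair there. At 240 h (0.0971, 0.114 and 0.0397) and across times (-0.0078 to 0.132) they were not, because these values were low. Even so, each WM-2474 library of 240 h deviated most like the DMSO library of its own number. Across times the same held within each treatment, except for WM-2474 replicate 1. Alternatives used RLE factors, library totals, other filters, DESeq2 1.42.0, limma-voom 3.58.1 with quality weights, a replicate block, only the libraries compared and libraries left out. Exact permutation used scipy 1.17.1 and figures matplotlib 3.10.9.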

Additional observations from a re-analysis of the deposited data

How the results depend on the processing

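Across the alternatives, 0 members passed in any comparison of WM-2474 with DMSO, though DESeq2 gave 11 members no adjusted p at 240 h. In the whole table the counts at 240 h ranged from 0 to 79 higher (4 as reported; 39 without a filter, 11 with DESeq2, 79 with a replicate block on the libraries compared) and 0 to 12 lower (0 as reported), and those of the average from 0 to 6 higher (2) and 0 to 10 lower (0). With library totals only, 7 members were higher and 20 lower in the time average, 5 and 17 in WM-2474, and 3 and 15 in DMSO. The ER sums were then 8700 and 9079 CPM in WM-2474 and DMSO at 240 h, and 9453 and 9471 CPM at 96 h. The cytosolic and mitochondrial sums were 5554 and 5759 CPM at 240 h, and 6093 and 6195 CPM at 96 h. Without DMSO 240 h replicates 1 and 2, the DMSO counts were 6 higher and 0 lower. Leaving out single libraries gave 8 to 12 higher and 4 to 6 lower in WM-2474, 9 to 12 and 3 to 4 in DMSO, and 12 to 14 and 6 to 8 in the average. A replicate block gave 13 higher and 6 lower in the average and changed no call of a member in the average or between treatments. On the libraries compared, the block lost the calls within WM-2474 of Pdia3 (adjusted p = 0.0887, and 0.0570 on those libraries with no block) and Herpud1 (adjusted p = 0.0671).

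Library totals turned the log2 time change of Hsf1 to -0.086, Hsp90aa1 to -0.13, Hspd1 to -0.0397, Hspe1 to -0.013, Hsp90b1 to -0.0899, Dnajb9 to -0.026, Dnajb11 to -0.022, Dnajc3 to -0.0777, Calr to -0.11, Canx to -0.0855, P4hb to -0.0367, Pdia4 to -0.0704, Herpud1 to -0.015, Ern1 to -0.0447 and Cct2 to -0.022. Of the members within a treatment they turned 12 in WM-2474 and 10 in DMSO, among the called ones Pdia3 in WM-2474 to -0.0038 and P4hb in DMSO to -0.0040. Hsp90aa1, at 0.00023 as reported, was -0.0061 without a filter, -0.0028 with a filter of over 1 CPM, -0.028 without DMSO 240 h replicates 1 and 2, and between -0.0232 and 0.0386 with single libraries left out. There Dnajb1 ranged from -0.0306 to 0.000796 and Bag3 from -0.0394 to 0.0095. Without DMSO 240 h replicates 1 and 2 these were 0.0021 and 0.0211. The sum of Hspa1a and Hspa1b stayed between 0.51 and 0.70. List counts that moved by over 1.5 times other than with library totals were those of CCT and prefoldin (5 higher, 3 without any of 3 single libraries, 1 without DMSO 240 h replicates 1 and 2), unfolded protein response signalling (8, 5 without DMSO 240 h replicate 3), and lower counts of 2 that became 1. Fitted intervals, with 3 libraries a group, limit what could be detected. The cause of these shifts was not tested, beyond the lower TMM factors at 240 h.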
